A study of Homo sapiens with 5 samples.

Results

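TEAD4 ChIP-seq peaks were described at 4 genes of the plasminogen activator system in LX-2 cells, a human hepatic stellate cell line: PLAU, PLAT, PLAUR and SERPINE2. The genes were taken by name, and a TEAD4 peak was linked to a gene when its summit lay in the gene body or within 50 kb of any transcription start site (TSS) of the gene in GENCODE release 44 on hg38. By this rule 19 of the 21113 listed peaks were linked, 6 to PLAU, 5 to PLAT, 5 to SERPINE2 and 3 to PLAUR, and no peak was linked to more than a single one of these genes. TEAD4 is a DNA-binding factor of the Hippo pathway, and all chromatin came from LX-2 cells that had received DMSO, the solvent control, without any gene deletion or transgene. There were 3 TEAD4 ChIP replicates and 2 input samples, of which one input served replicates 1 and 2 and the other replicate 3. The authors combined replicates 1 and 3 into a single list and left out replicate 2, so that every value below is one value per peak with no replicate error, and the depth of the libraries is unknown.

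Plasmin, the protease that dissolves fibrin and cleaves other matrix proteins, circulates as the inactive plasminogen and is released by either of a pair of activators. Urokinase, encoded by PLAU, acts mainly at the cell surface, where its receptor, encoded by PLAUR, holds it in place. Tissue-type activator, encoded by PLAT, acts mainly on fibrin. Serpins switch the activators off by trapping them, and SERPINE2 encodes protease nexin-1, a secreted serpin that inhibits thrombin, urokinase and plasmin. In the liver, activated stellate cells lay down the matrix of a fibrotic scar and also secrete components of this system. TEAD factors recognise a short DNA word around CATTCC and bind many enhancers together with AP-1, a factor of the FOS and JUN families that recognises TGACTCA.

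Each peak carries a signal value, which is the strength that the peak caller assigned to it, and a score for the reproducibility between the replicates (IDR score, highest value 1000). The median signal value of the 19 linked peaks was 58.0, and that of the whole list was 68.1. The linked peaks ranged from 6.9 to 336.8 while the list ranged from 6.57 to 1074.4, and 8 of the 19 lay above the median of the list. They fell into 3 separate ranges of signal value, with 8 peaks between 119.1 and 336.8, 8 peaks between 40.3 and 58.2 and 3 peaks between 6.9 and 8.8. Of all listed peaks, 30.2% had a signal value above 100 and 1.8% one under 10, both limits being chosen after the values were seen. The 3 weakest peaks had q-values of 0.552, 0.791 and 0.837, above the 0.05 that 3.19% of all peaks exceeded. Each of these 3 shared bases with a stronger linked peak at its side, and 6 of the 19 linked peaks shared bases with another peak, against 15.9% of the list. Joining overlapping peaks left 16 separate regions. The highest IDR score was given to 12 of the 19 peaks and to 76.1% of the list, and the lowest IDR score among the 19 was 872.

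**Figure D1:**
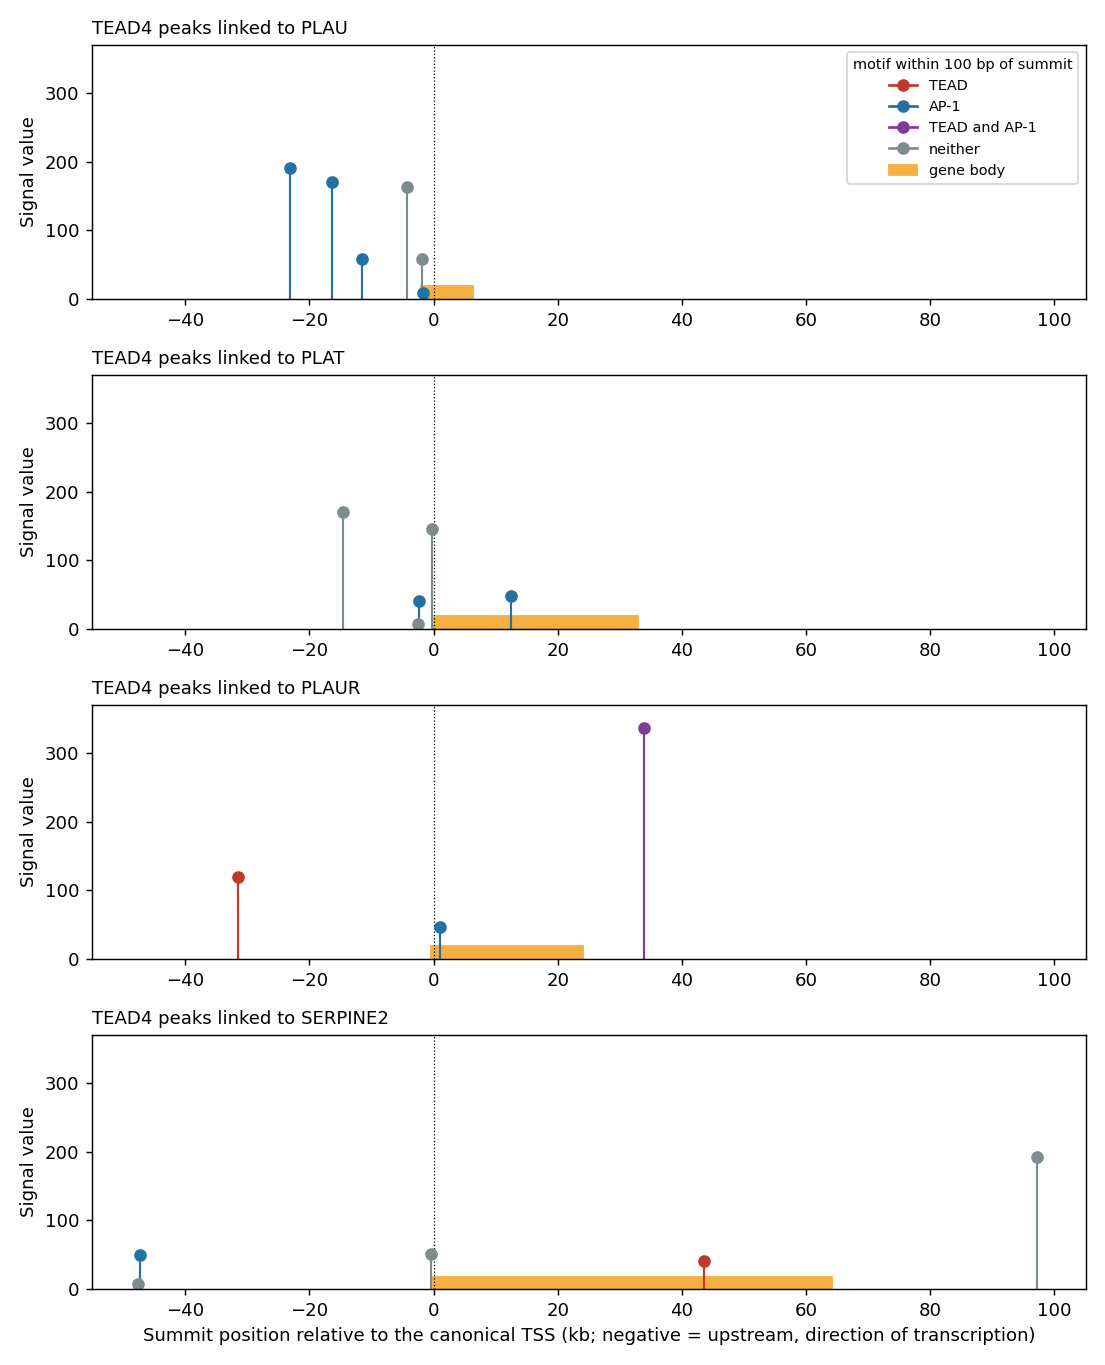
Signal value (vertical axis, no unit) of each linked TEAD4 peak against the position of its summit relative to the canonical TSS (kb, in the direction of transcription), with a panel per gene, the gene body in orange and colours for the motifs within 100 bp of the summit. The peaks of PLAU lay upstream of its canonical TSS, whereas PLAUR and SERPINE2 had their strongest peak downstream of the gene, at 336.8 and 191.9.

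PLAU (ENSG00000122861, chromosome 10, 73909177 to 73917496, plus strand) had 6 linked peaks, and all 6 lay upstream of its canonical TSS at 73911132. The 3 strong peaks had signal values of 190.9 at 23199 bp, 170.1 at 16422 bp and 162.8 at 4267 bp upstream of that site, all in intergenic sequence and all with the highest IDR score. Between them, at 11585 bp upstream, lay a peak of 58.0 (IDR score 940). The remaining pair lay at an earlier start site of the gene: a peak of 58.2 with its summit 62 bp from that TSS, in an untranslated exon of PLAU, and a peak of 8.8 in the first part of the following intron, with summits 212 bp apart. The distances between the other neighbouring summits were 2374 to 7318 bp, so the peaks formed a row that led up to the gene, the 2 most distant being the strongest. CAMK2G, which encodes a calcium and calmodulin dependent kinase subunit, was in reach of all 6 peaks by the same rule, and for the most distant its TSS was the nearest coding one (13342 bp against 21244 bp to the nearest TSS of PLAU).

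The 4 regions printed here are the PLAU peaks upstream of all start sites of the gene. They are given because they hold most of the signal at the gene and because 3 of them carry the AP-1 word and none the full TEAD word ACATTCC. Each is 151 bases of the plus strand of hg38 centred on the summit, in lower case, with AP-1 words (TGACTCA, or TGAGTCA on the other strand) and the RUNX word (TGTGGTT, here AACCACA) in capitals.
PLAU 23199 bp upstream, chr10:73887858-73888008: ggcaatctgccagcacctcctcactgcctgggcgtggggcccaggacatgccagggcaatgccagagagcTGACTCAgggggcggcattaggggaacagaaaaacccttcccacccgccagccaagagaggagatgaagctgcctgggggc
PLAU 16422 bp upstream, chr10:73894635-73894785: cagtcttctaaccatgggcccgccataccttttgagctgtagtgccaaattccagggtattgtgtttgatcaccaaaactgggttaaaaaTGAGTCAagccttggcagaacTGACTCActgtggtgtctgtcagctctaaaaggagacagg
PLAU 11585 bp upstream, chr10:73899472-73899622: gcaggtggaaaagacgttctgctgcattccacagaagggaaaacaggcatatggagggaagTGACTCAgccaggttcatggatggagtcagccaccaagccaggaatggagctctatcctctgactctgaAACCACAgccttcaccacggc
PLAU 4267 bp upstream, chr10:73906790-73906940: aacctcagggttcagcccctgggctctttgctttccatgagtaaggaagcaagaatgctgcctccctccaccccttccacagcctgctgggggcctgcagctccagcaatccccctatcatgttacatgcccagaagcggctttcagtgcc

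At the peak 23199 bp upstream, the centre of the AP-1 word lay 2 bp from the summit. The peak 16422 bp upstream held 2 AP-1 words, on opposite strands and 21 bp apart, at 18 and 39 bp from the summit, whereas 2.04% of all listed peaks held 2 or more. In the peak of 58.0 the AP-1 word lay 11 bp from the summit and a RUNX word 58 bp from it. The shorter core CATTCC occurred 2 times in that peak and 1 time, 81 bp from the summit, in the most distant one. The strong peak 4267 bp upstream and the peak in the exon held neither word. The weak peak in the intron, of 8.8, held an AP-1 word 14 bp from its summit. Thus 4 of the 6 PLAU peaks held AP-1 and 0 of 6 TEAD within 100 bp of the summit.

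PLAUR (ENSG00000011422, chromosome 19, 43646095 to 43670547, minus strand) had 3 linked peaks, the fewest of the 4 genes, with the strongest single peak among them. This peak had a signal value of 336.8, above 97.5% of the list (rank 537), and lay 33904 bp downstream of the canonical TSS at 43670169, beyond the end of the gene. It sat in an intron of CADM4, a gene for a cell adhesion molecule, whose TSS was 3585 bp away and was the nearest coding one. By the same rule this peak was in reach of 6 other genes. The second strongest, of 119.1, was intergenic, 31440 bp upstream of the canonical TSS, and its nearest coding TSS was that of IRGC at 14467 bp. A single peak, of 46.5 with an IDR score of 927, lay in the gene itself, in an intron 1049 bp downstream of the canonical TSS. It was the only one of the 3 whose nearest coding TSS was that of PLAUR.

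All 3 PLAUR peaks are shown, because they include 2 of the 3 linked peaks with the full TEAD word and the only one with both words. Capitals mark the TEAD word (ACATTCC) and the AP-1 word.
PLAUR 33904 bp downstream, chr19:43636190-43636340: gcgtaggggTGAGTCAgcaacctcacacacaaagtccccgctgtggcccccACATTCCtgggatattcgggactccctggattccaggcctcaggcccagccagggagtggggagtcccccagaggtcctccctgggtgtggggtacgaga
PLAUR 1049 bp downstream, chr19:43669045-43669195: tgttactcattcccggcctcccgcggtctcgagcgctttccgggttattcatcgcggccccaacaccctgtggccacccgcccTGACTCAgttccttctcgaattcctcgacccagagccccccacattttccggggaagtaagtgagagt
PLAUR 31440 bp upstream, chr19:43701534-43701684: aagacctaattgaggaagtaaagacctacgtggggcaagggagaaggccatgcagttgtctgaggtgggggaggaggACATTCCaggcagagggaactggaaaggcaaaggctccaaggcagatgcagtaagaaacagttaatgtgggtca

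In the peak of 336.8 the centre of the TEAD word lay 21 bp from the summit and that of the AP-1 word 63 bp from it, with 42 bp between the centres. Both words occurred in 4.49% of all listed peaks. In the peak of 119.1 the TEAD word lay 5 bp from the summit, the shortest such distance at these genes. The intronic peak of 46.5 held the AP-1 word 11 bp from its summit and the core CATTCC, but not the full TEAD word, 65 bp from it.

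SERPINE2 (ENSG00000135919, chromosome 2, 223975045 to 224039318, minus strand) is the longest of the 4 genes, at 64.3 kb, and had 5 linked peaks, widely spaced apart from one pair. The strongest, of 191.9, lay 97153 bp downstream of the canonical TSS at 224039286 and 40647 bp from the nearest TSS of any SERPINE2 transcript, in an intron of WDFY1 and of the unnamed gene ENSG00000286239, with the TSS of WDFY1 3202 bp away. The other 4 were under 52: a peak of 40.7 (IDR score 885) in an intron of SERPINE2, 43603 bp downstream of the canonical TSS, a peak of 51.1 at 346 bp upstream of it, and an overlapping pair of 49.8 and 6.9 at 47362 and 47564 bp upstream. The weaker of that pair had the highest IDR score in spite of a q-value of 0.837. The 3 peaks at and upstream of the canonical TSS had no other coding gene in reach, and they were the only ones of the 19 of which this was true. Neighbouring SERPINE2 summits outside the pair were 43949 to 53550 bp apart, while those of PLAU outside its pair were at most 7318 bp apart.

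A single SERPINE2 region is printed, its strongest peak, to show a strong peak that held neither the TEAD nor the AP-1 word, so that it has no capitals.
SERPINE2 97153 bp downstream, chr2:223942058-223942208: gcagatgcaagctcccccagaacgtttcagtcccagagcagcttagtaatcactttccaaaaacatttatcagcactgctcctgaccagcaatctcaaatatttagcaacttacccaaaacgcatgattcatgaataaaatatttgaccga

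The only TEAD word at SERPINE2 was in the intronic peak of 40.7, with its centre 12 bp from the summit. The SERPINE2 peak nearest to the canonical TSS had the highest GC content of the 19, 69.7% within 100 bp of the summit, and held none of the words. The peak of 49.8 held a RUNX word 23 bp and an AP-1 word 87 bp from its summit, and its weak neighbour held none.

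PLAT (ENSG00000104368, chromosome 8, 42174718 to 42207709, minus strand) had 5 linked peaks, 4 of them within 2.5 kb of one of its 12 annotated start sites. The peak nearest to the canonical TSS at 42207565 had a signal value of 146.2 with its summit 218 bp upstream, and it was the only strong peak of the 19 within 1 kb of a start site of its gene. The strongest PLAT peak, of 169.6, lay 14636 bp upstream of the canonical TSS. An overlapping pair of 40.3 and 7.45 lay 2388 and 2593 bp upstream, and a peak of 48.0 lay in an intron 12537 bp downstream. A TSS of PLAT was the nearest coding one for all 5. AP3M2, a gene for an adaptor subunit of vesicle transport, was also in reach of 4 of them, and IKBKB, which encodes a kinase of NF-kB signalling, of the strongest. Both strong peaks had the highest IDR score and held neither the TEAD nor the AP-1 word. An AP-1 word lay 46 bp from the summit of the intronic peak and 37 bp from that of the peak of 40.3. The core CATTCC occurred in none of the 5 peaks, whereas it occurred in at least 1 peak of each of the other 3 genes.

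**Figure D2:**
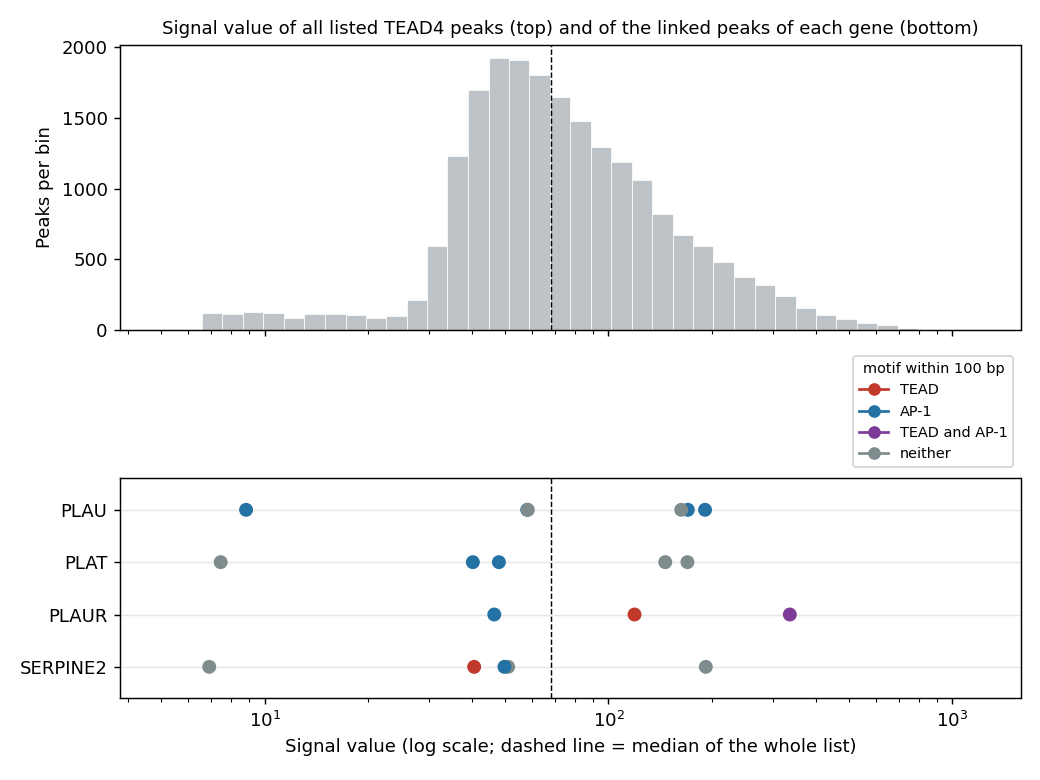
Distribution of the signal value over all 21113 TEAD4 peaks (top, peaks per bin) and the signal value of each linked peak per gene (bottom, 1 point per peak, coloured by motif), on a shared log axis with the list median of 68.1 as a dashed line. Of the 19 linked peaks 8 lie right of the line and 3 lie in the sparse left tail under 10, and the points of PLAU at 58.0 and 58.2 coincide.

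Among the 4 genes, the strongest peak of PLAUR at 336.8 stood above those of SERPINE2 (191.9), PLAU (190.9) and PLAT (169.6). Without a value per replicate the order of the last 3, which lay close together, cannot be set against an error. The nearest coding TSS of the strongest peak was that of another gene at PLAUR (CADM4), SERPINE2 (WDFY1) and PLAU (CAMK2G). Among peaks whose nearest coding TSS was that of the linked gene, the order differed. There the strongest had 170.1 at PLAU, 169.6 at PLAT, 51.1 at SERPINE2 and 46.5 at PLAUR. The sum of signal values over all linked peaks put PLAU first with 648.8, followed by PLAUR with 502.4, PLAT with 411.6 and SERPINE2 with 340.3. The median per gene was 119.1 for PLAUR, 110.5 for PLAU, 49.8 for SERPINE2 and 48.0 for PLAT. Each gene had 1 to 3 peaks above the median of the list, with 3 at PLAU, 2 at PLAT, 2 at PLAUR and 1 at SERPINE2.

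Linked peaks were common among protein-coding genes, 56.2% of 20007 having at least 1. The count at each of the 4 genes was above the median of 1 peak. At least 3 peaks, as at PLAUR, were linked to 19.5% of coding genes, at least 5, as at PLAT and SERPINE2, to 7.20%, and at least 6, as at PLAU, to 4.67%. A long gene with many start sites has a larger stretch of sequence in reach, so the counts were also given per length. The stretch in reach was 102.0 kb for PLAU, 114.0 kb for PLAUR, 126.9 kb for PLAT and 156.5 kb for SERPINE2, against a median of 112.4 kb for all coding genes. PLAU had 5.88 peaks per 100 kb, a density that 0.885% of coding genes reached. PLAT had 3.94 (reached by 3.81%), SERPINE2 3.19 (6.08%) and PLAUR 2.63 (10.7%), and the median of all coding genes was 0.668. A strongest peak as high as that of PLAUR was found at 3.36% of coding genes, and as high as those of SERPINE2, PLAU and PLAT at 11.4%, 11.5% and 14.0%. The median strongest peak of the genes that had one was 97.5. For all genes the strongest linked peak was taken whether or not another gene had the nearer TSS.

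**Figure D3:**
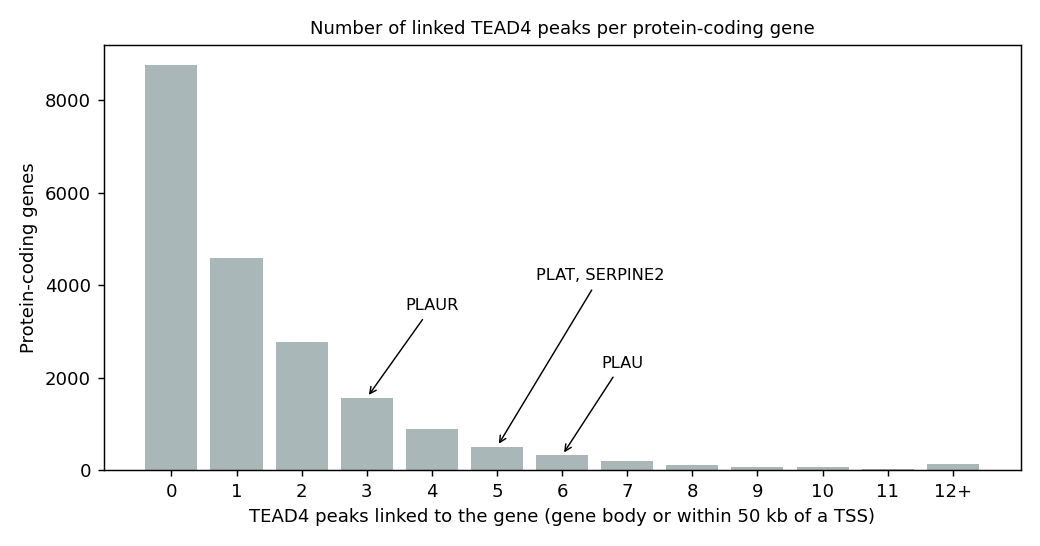
Number of protein-coding genes (vertical axis) by the number of TEAD4 peaks linked to them (horizontal axis), with arrows at the bars that hold the 4 genes. PLAUR stands in the bar of 3 peaks with 1564 genes, PLAT and SERPINE2 in that of 5 with 505 genes, and PLAU in that of 6 with 320 genes.

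All 4 genes had a peak summit within 2.5 kb of one of their start sites, which was so for 16.7% of coding genes, and all 4 had one within 2.5 kb of the canonical TSS, which was so for 11.0%. In all, 9 of the 19 summits lay within 2.5 kb of a start site, 4 at PLAT, 3 at PLAU and 1 each at PLAUR and SERPINE2, and 9 lay beyond 10 kb. Relative to the canonical TSS 14 summits were upstream and 5 downstream. By annotation 12 summits were intergenic, 6 intronic, of which 4 were in an intron of the gene itself, and 1 was in an exon. The nearest coding TSS was that of the linked gene for 15 of the 19 peaks, and 16 had at least 1 other coding gene in reach. Distance alone does not show which gene a peak acts on.

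Within 100 bp of the summit, the TEAD word ACATTCC was found on either strand in 3 of the 19 linked peaks (15.8%) and in 23.0% of all listed peaks. The AP-1 word was found in 9 of the 19 (47.4%) and in 25.4% of all. The core CATTCC, which the TEAD word contains, was found in 6 of the 19 (31.6%) and in 46.8% of all, and the RUNX word in 2 of the 19 and in 9.53% of all. Neither TEAD nor AP-1 was found in 8 of the 19 and in 56.1% of all. These shares are a description of 19 peaks at 4 genes, some of which overlap, and they were not tested. With a wider window of 250 bp on each side the AP-1 word was found in 13 of the 19 (33.2% of all peaks) and the TEAD word still in 3 (28.0% of all). The centres of the 3 TEAD words lay 5 to 21 bp from the summit (median 12 bp) and those of the 10 AP-1 words 2 to 87 bp from it (median 27.5 bp), 5 of them within 20 bp.

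By gene, PLAU had AP-1 in 4 of 6 peaks and TEAD in 0, and PLAT had AP-1 in 2 of 5 and TEAD in 0. PLAUR had AP-1 in 2 of 3 and TEAD in 2, and SERPINE2 had AP-1 in 1 of 5 and TEAD in 1. Over all listed peaks 25.4% held AP-1 and 23.0% TEAD. With so few peaks per gene, no difference between the genes was tested. Among the 8 peaks with a signal value above 100, the AP-1 word was found in 3, the TEAD word in 2 and neither in 4. Of all listed peaks above 100, 27.3% held AP-1 and 30.8% TEAD. Among the 11 peaks under 100, AP-1 was found in 6 and TEAD in 1, against 24.6% and 19.6% of the listed peaks in that range. The 3 peaks above 100 with AP-1 had signal values of 336.8, 190.9 and 170.1, and those above 100 without it ranged from 119.1 to 191.9. The median signal value was 49.8 for the linked peaks with AP-1 and 88.7 for those without. No linked peak lay between 58.2 and 119.1, so the median of 88.7 falls in a gap, and the difference was not tested.

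The reach of 50 kb set which peaks were counted. The peaks just inside it were those of SERPINE2 at 47330 and 47532 bp from the nearest start site, of 49.8 and 6.9. For peaks outside the reach, distances are likewise to the nearest start site of the gene. The nearest of them were one of 126.0 at 56.8 kb on the downstream side of PLAT and one of 83.5 at 63.1 kb upstream of SERPINE2. For the latter, SERPINE2 was still the gene with the nearest coding TSS. For PLAUR the next peaks were at 84.7 kb upstream (88.1) and 152.5 kb downstream (44.2). For PLAU they were at 88.8 kb downstream (58.5), by VCL, which encodes the adhesion protein vinculin, and only at 813.5 kb upstream (98.5).

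The other genes of the plasminogen system were taken from a list of 27 that act upstream or downstream of these 4. Of these, 17 (63%) had a linked peak against the 56.2% of all coding genes, 9 (33.3%) had at least 3 against 19.5%, and 8 (29.6%) had a summit within 2.5 kb of a start site against 16.7%. The median of the list was 1 peak, as for all coding genes. PLG, the gene for plasminogen itself, had none. Of the cell-surface plasminogen receptors, ANXA2 (annexin A2) had 9 linked peaks with a strongest of 643.8, its partner S100A10 had 4 with 379.1, ENO1 had 5 with 355.9 and PLGRKT 1 with 125.3. Each of these 4 had a summit within 2.5 kb of a start site.

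Among the serpins, SERPINB2, another inhibitor of urokinase, had 4 linked peaks with a strongest of 157.9, and SERPINF2, which encodes the plasmin inhibitor antiplasmin, had 4 with a strongest of 584.5 but none nearer than 26174 bp to its start sites. SERPINA5 had 2 with a strongest of 74.2, and SERPINI1, the neuronal serpin that inhibits tissue-type activator, had none. The integrin genes whose products work with the urokinase receptor had 9 peaks (ITGB1, strongest 175.2), 4 peaks (ITGB3, 422.9) and 2 peaks (ITGAV, 90.8), and VTN, the gene for the matrix protein vitronectin that this receptor binds, had 4 with a strongest of 257.0. Of the receptors that clear activator and inhibitor complexes, LRP1 had 2 peaks (106.4), LRP2 had 1 (63.8), and VLDLR had none. IGF2R, which binds both plasminogen and the urokinase receptor, had none, and MRC2, a collagen receptor that associates with the urokinase receptor, had 1 (186.1). F2R, the thrombin receptor, had 3 with a strongest of 92.8, and HRG and F12 had 1 each (33.8 and 110.4). The fibrinogen genes FGA, FGB and FGG had none, and neither did A2M, CPB2 and KLKB1. At SERPINF2, SERPINA5, LRP1, LRP2, MRC2, HRG and F12 every linked peak had its nearest coding TSS at another gene. The strongest peak lay nearest to WDR81 for SERPINF2, to TNFAIP1 for VTN, to ZC3H15 for ITGAV and to MARCHF10 for MRC2.

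**Figure D4:**
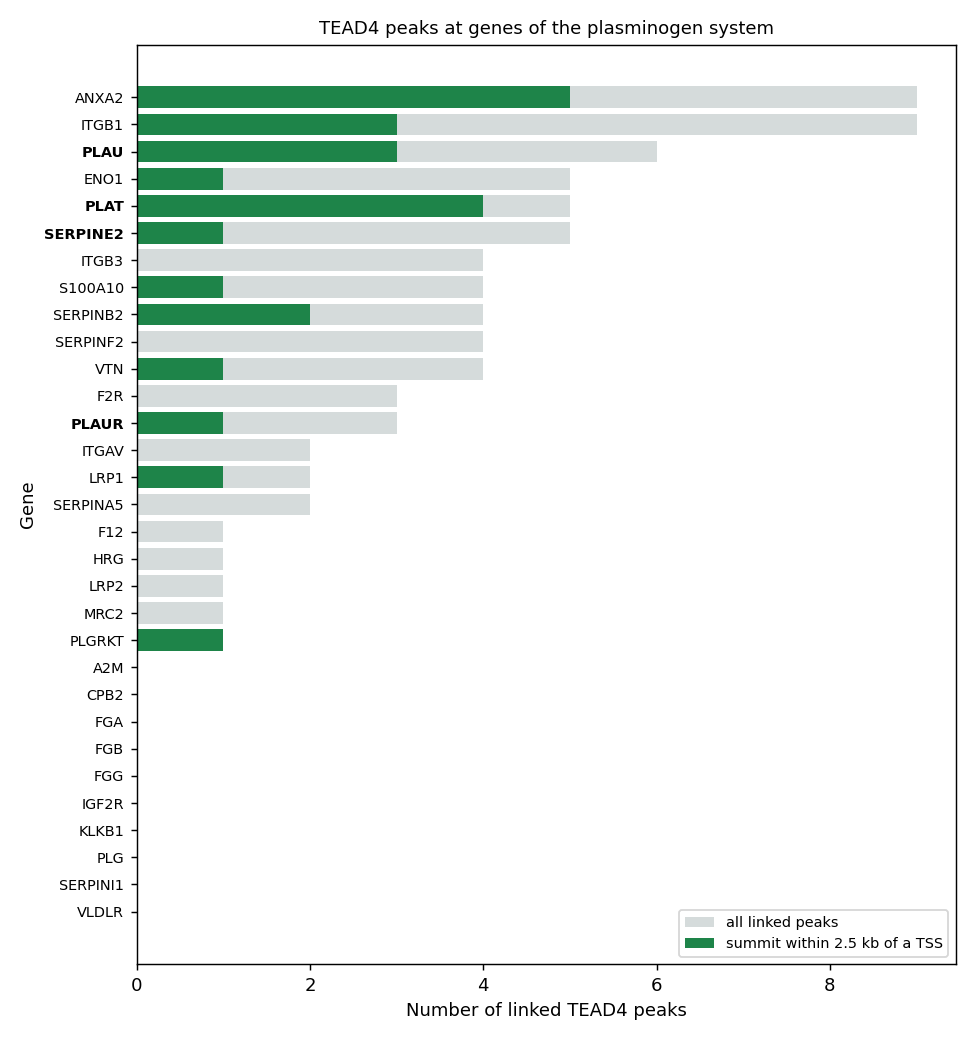
Number of linked TEAD4 peaks (horizontal axis) at the 4 genes (bold) and the other 27 genes of the plasminogen system, with all linked peaks in grey and those with a summit within 2.5 kb of a start site in green. ANXA2 and ITGB1 have 9 peaks each, PLAU has 6, and 10 genes have 0.

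The 17 genes with a linked peak had 57 listed peaks, overlapping ones counted separately. Joined, the 9 of ITGB1 left 7 regions, and the 4 of SERPINB2 and the 4 of SERPINF2 left 3 each. Of the 57 peaks, 16 (28.1%) held the TEAD word and 12 (21.1%) the AP-1 word. For the peaks of PLAU, PLAT, PLAUR and SERPINE2 together the same shares were 15.8% and 47.4%. Whether the difference exceeds what other genes would give was not tested.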

How the data were processed

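TEAD4 ChIP-seq was carried out by the authors in DMSO-treated LX-2 cells, with 3 replicates and 2 inputs. Per the labels and methods, reads were mapped to hg38 with Chromap, and peaks shared by replicates 1 and 3 were kept with the ENCODE IDR pipeline; the peak caller is not given in the sources used here. In the deposited list each peak has a score (scaled IDR), a signal value, a −log10 q-value and a summit offset, all made by the authors' pipeline. What each of the 10 columns means was taken from their order and values. No value is given per sample, so depth and replicate spread are unknown and no test was run.

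Peaks were linked to genes by their summits with GENCODE release 44 and a reach of 50 kb, for the 4 genes and for 20007 protein-coding genes alike. No peak ran past a chromosome end of this hg38. Exact motif words were looked for, on either strand, up to 100 bp from each summit, and sequences were read from the same hg38. The sequence of the intronic SERPINE2 peak is not reported here. The RefSeq promoter windows held 2 entries for PLAU, 1 for PLAUR and 2 for SERPINE2, none of which shared a base with a linked peak. PLAT had no entry and could not be compared, so no promoter is shown. These windows do not cover every start site, and all 4 genes had a peak summit within 2.5 kb of a start site. Linking and searching were tested on simulated data. Python 3.11.15, numpy 2.4.6, pandas 2.3.3 and matplotlib 3.10.9 were used. The 4 genes and the list of 27 were chosen with earlier results of these data known. Every linked peak of the 4 genes is accounted for, and other genes are named where their start site is the nearest coding one, where they are in reach of a linked peak or where they belong to the list. For the list of 27, genes with the nearest start site are named for some of the strongest peaks only.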

Additional observations from a re-analysis of the deposited data

How the results depend on the processing

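The number of linked peaks, 19 in all, changed with the reach and the peak filter: it was 11 with a reach of 10 kb, 30 with 100 kb, 12 with the highest IDR score only and 8 above the median signal value. The percent of coding genes with a linked peak, 56.2, moved in the same way, to 34, 72, 48.8 and 38.8. The TEAD motif was found in 6 peaks instead of 3 when the core CATTCC alone was asked for. PLAUR kept 1 of its 3 peaks with a reach of 10 kb and also when each peak went to the nearest coding gene only. The other alternatives moved the total to between 15 and 19 and the AP-1 count to between 7 and 13. Of 54 alternatives over all results, 35 left the value within the limit set for it and 19 did not, the limit being 1.5 times for a number of peaks and the 95% binomial interval for the percent of coding genes. No paired analysis was possible because there is no value per sample, the replicates being combined, which is also why no replicate was left out. Distance links do not show which gene a peak acts on, and expression of these genes was not analysed here.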

Other observations

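The width of the linked peaks went with their signal value. Of the 19 peaks, 11 were 444 bp wide, the width of 13039 peaks of the list, and their highest signal value was 58.2. The other 8 were 211 to 346 bp wide, and their lowest signal value was 119.1. In the whole list 1.61% of the peaks of 444 bp had a signal value above 100. The share was 76.5% for narrower peaks. How the width arose was not tested.

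Weak peaks beside a stronger one were found at PLAU, PLAT and SERPINE2, with summits 212, 205 and 202 bp apart. In the whole list 3356 peaks shared bases with another peak, and of the 380 peaks with a signal value under 10, 375 did.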
